A study of Homo sapiens with 6 samples.

Results

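Intronic back-splice junctions are the junctions that the deposited circRNA table places in its intronic category, and all rows of that category were taken. They number 219 of the 7746 junctions listed, beside 6585 exonic and 916 sense overlapping ones. Junction reads were counted in 6 libraries of total RNA, 3 of PANC-1-GR cells and 3 of PANC-1 cells. PANC-1 cells were grown from a human pancreatic duct carcinoma. PANC-1-GR was selected from it over 40 weeks in Gemcitabine raised from 0.1 to 200 μg/ml, and was then kept with 10 μg/ml, while the PANC-1 libraries are the untreated control. Each line is 1 selected or parental cell line, the labels number its libraries 1 to 3, and they do not say that these are separate cultures, so the p-values below measure only the spread between these libraries.

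A back-splice joins the end of a stretch of RNA to a point upstream of it, which closes the RNA into a circle. Circles made of exons come from back-splicing between exon ends. Intronic circles are best known from intron lariats that escape debranching, where the intron that splicing removes keeps a closed loop and stays in the nucleus. In the table an intronic circle is only a span between 2 positions with an intronic label, so lariat loops, circles from exons outside the listed transcript and matches between repeated sequences cannot be told apart by the label alone.

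Host transcripts of GENCODE release 29 were laid against themselves, displaced by the span of each junction, wherever a transcript was more than 20 bases longer than the span. Of the 111 intronic junctions scanned, 5 had a run of at least 30 identical bases at a displacement equal to the span, against 0 of 2361 exonic and 3 of 229 sense overlapping junctions. Among the 5 were a 2346 bp junction of AHNAK with a run of 152 bases, and a 572 bp junction of the long noncoding RNA TP73-AS1 with a run of 41. AHNAK encodes a very large protein built of repeats. TP73-AS1 is named here after its value was seen. Its run starts at bases 1955 and 2527 of transcript ENST00000649290 (GRCh38, chromosome 1) and is shown because the same letters stand in the transcript at both places, as far apart as the listed span is long.
TP73-AS1 run: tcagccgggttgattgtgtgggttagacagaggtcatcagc
The AHNAK junction had 5 reads over the 6 libraries and the TP73-AS1 junction 2. Whether such reads came from a circle or from the linear repeat was not tested.

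The spans of the intronic junctions ran between 150 and 99637 bp, with a median of 4306 (quartiles 1086 and 14392.5). The median was 9160 bp in exonic and 13861.5 bp in sense overlapping junctions. Spans under 1000 bp made up 24.2% of intronic, 10.2% of exonic and 8.95% of sense overlapping junctions. For all 219 intronic junctions the predicted circle length in the table equals the span, so no inner intron is taken out of it. The same holds for all 916 sense overlapping junctions and for 5.63% of exonic ones. The shortest spans were 150 bp in TAPBP, 152 bp in AP000721.4 and 160 bp in PVT1. TAPBP encodes tapasin, which loads peptides on MHC class I, and PVT1 is a long noncoding RNA. The longest were 99637 and 89011 bp in KCNMA1 and 88795 bp in TMEM164. Each of these 6 extremes had only 2 to 5 reads over the 6 libraries.

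**Figure D1:**
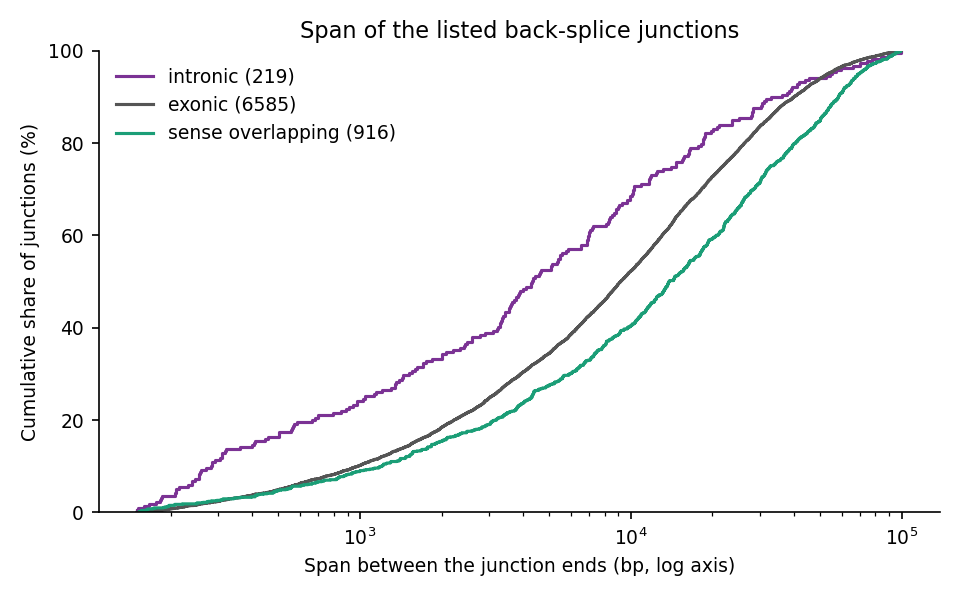
Cumulative share of junctions (vertical axis, percent) by span (horizontal axis, bp, log axis) for the 3 main categories of the table. The intronic curve lies left of the exonic one over most of its length, with medians of 4306 and 9160 bp.

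The 219 junctions came from 174 host genes, of which 140 had 1, 27 had 2 and 7 had 3 or more. The hosts with the most were KCNMA1 with 6 and CRIM1 with 4, and AHNAK, PRB4, EFCAB2 and ZFAND3 were among those with 3. Of the 174 hosts, 99 (56.9%) also had an exonic junction in the table. GENCODE release 29 holds the host of 210 junctions, and the host is protein coding for 196 of these junctions. The strand was that of the gene in 208 of the 210, and 110 of the 219 lay on the plus strand.

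KCNMA1, which encodes the pore of the BK potassium channel, had 6 intronic junctions that held 9 reads in PANC-1-GR and 12 in PANC-1. Each of them had 2 to 6 reads, so none could be compared between the lines at this depth. The 3 junctions of AHNAK had 5, 4 and 2 reads, and the 3 of EFCAB2 had 4, 2 and 2. In ZFAND3, 3 junctions were built from 2 starts and 2 ends, with 5, 4 and 4 reads.

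No host stood on the lists of reported circular intronic RNA hosts (6 genes), of lariat debranching and U2 snRNP factors (10), of Gemcitabine transport and metabolism (16) or of abundant housekeeping and cytoskeletal genes (21), and none was a ribosomal protein gene. These lists did have 5, 7, 9, 9 and 14 junctions of any category in the table. Intronic junctions were 219 of all 7746. With so few junctions on the lists, the lack of intronic ones is not shown to be a trait of the hosts. Ductal keratin and adhesion markers gave 1 junction, of KRT19, with 1 read in PANC-1-GR and 2 in PANC-1, and markers of fibroblasts, blood cells and endothelium gave none. A gene without a junction is not shown to be unexpressed, so this says little of the cell type.

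A circBase ID was given to 50 of the 219 intronic junctions (22.8%), against 67.1% of exonic and 16.3% of sense overlapping junctions. Another 26 were credited to an earlier published set and 143 (65.3%) were marked as new to the databases used. The unlisted ones were shallower. Their median was 2 reads over the 6 libraries and 63.6% were read in 1 library only, while the circBase ones had a median of 6.5 reads and 16.0% in 1 library only. Their median spans were 3706 and 5485 bp.

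Some intronic junctions met exonic ones, though less often than exonic junctions met each other. A first or last base was shared with an exonic junction by 57 of the 219 (26.0%), 30 at the first base and 27 at the last, and these held 293 of the 1275 intronic reads. In exonic junctions the share was 52.4% and in sense overlapping ones 34.8%. A further kind of contact is an overlap of at most 500 bases at the edge with an exonic junction. It was found in 19 intronic junctions (8.68%), in 11.4% of exonic and in 7.97% of sense overlapping ones. In the 19 intronic junctions the overlap ran between 49 and 272 bases, and in all 19 it equals the length of an exon of the host in GENCODE release 29. Such an overlap had an exon's length in 710 of 750 exonic and 56 of 73 sense overlapping junctions. This is a match of length and not of position, since the builds differ. By contrast, the whole span equalled a distance between an exon start and an exon end of the host in 25 of 210 intronic junctions (11.9%). The share was 97.8% in exonic and 12.8% in sense overlapping ones. Where the listed transcript is in GENCODE, the span was no longer than its longest intron in 164 of 166. The same held for 89 of 120 exonic and 15 of 24 sense overlapping junctions with such a transcript. This compares lengths only and does not place a junction within an intron.

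CRIM1 was the clearest case of such contacts. It encodes a transmembrane protein with cysteine-rich repeats that binds bone morphogenetic proteins. Its 4 intronic junctions start at 36586047, 36596251, 36605500 and 36615115 on chromosome 2 (hg19, plus strand) and all end at 36623930. Of the exonic CRIM1 junctions, 3 start at 36623757, so the intronic spans reach 174 bases into them, and 174 bases is an exon length of CRIM1. The same 4 starts were joined to 36669878 by 4 sense overlapping junctions, with 17 reads in PANC-1-GR and 8 in PANC-1, while the 4 intronic ones had 54 reads in either line.

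The 8816 bp junction of CRIM1 (chr2:36615115-36623930) had 5, 7 and 7 reads in PANC-1-GR and 8, 9 and 8 in PANC-1. The 37884 bp one (chr2:36586047-36623930, hsa_circ_0006294) had 5, 7 and 13 reads in PANC-1-GR and 5, 7 and 6 in PANC-1. Library depth differs, and per 10000 junction reads the lines overlapped in both. Their log2 fold changes of -0.42 ± 0.49 and 0.44 ± 0.49 (SE, n = 3 libraries each) point in opposite directions and did not pass the edgeR quasi-likelihood test (adjusted p = 0.978 for both). The 46122 bp exonic junction that starts 174 bases upstream of their shared end had 12, 11 and 15 reads in PANC-1-GR and 11, 12 and 10 in PANC-1.

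**Figure D2:**
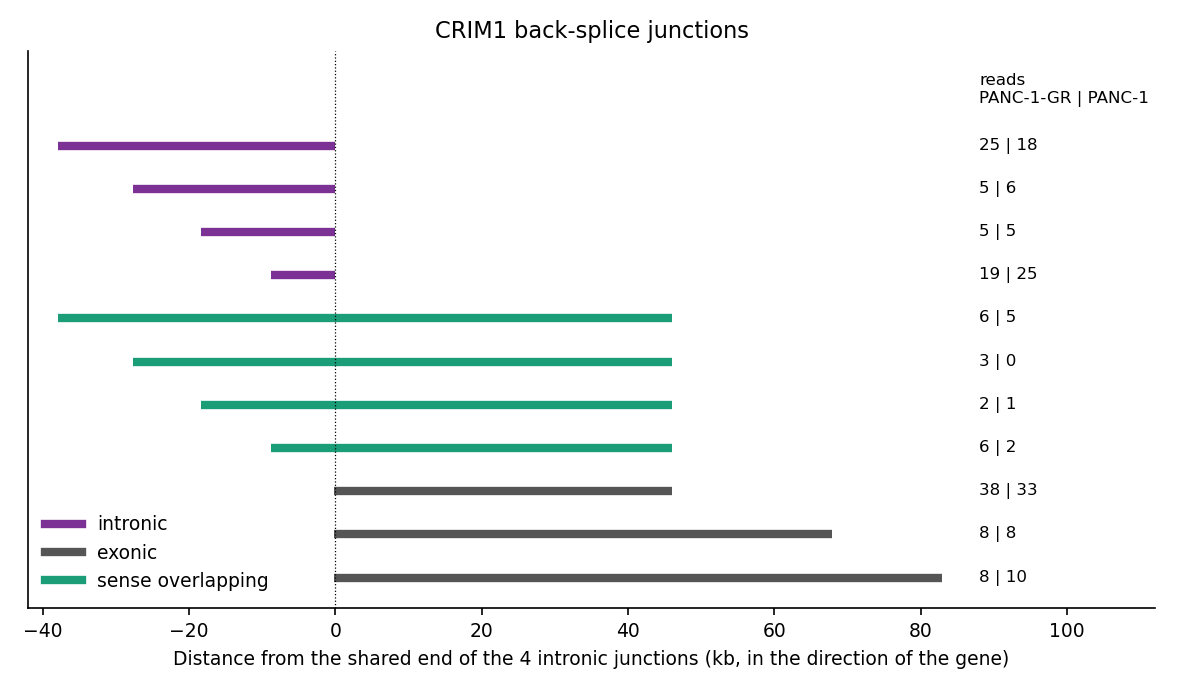
Back-splice junctions of CRIM1 that touch its intronic ones, as bars by distance from the shared intronic end (horizontal axis, kb), with the reads summed over 3 libraries of each line at the right. The 4 intronic bars end together, where the 3 exonic bars begin, and the 4 sense overlapping bars repeat the intronic starts.

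Intronic junctions held a small share of the junction reads in every library. It was 2.05%, 1.65% and 2.17% in PANC-1-GR (281 of 13689, 152 of 9222 and 236 of 10889 reads) and 1.72%, 1.90% and 1.87% in PANC-1 (206 of 11964, 224 of 11785 and 176 of 9429). The exact binomial 95% interval of a single library, as in PANC-1-GR replicate 1 with 1.82% to 2.30%, is wider than most of these differences. PANC-1-GR averaged 1.96% ± 0.27 and PANC-1 1.83% ± 0.09 (SD, n = 3 each), a difference of 0.13 points that was not larger than the spread between libraries (two-sided exact permutation test, p = 0.5, with 0.1 the smallest p of 3 against 3). The highest and the lowest share both belonged to PANC-1-GR libraries. In bulk RNA, more of a circle per cell and more cells that carry it cannot be told apart.

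The number of intronic junctions with a read was 104, 64 and 89 in PANC-1-GR and 84, 99 and 84 in PANC-1. The library with the fewest junction reads, PANC-1-GR replicate 2, had the fewest, and the one with the most reads, PANC-1-GR replicate 1, had the most. The mean was 85.7 ± 20.2 in PANC-1-GR and 89.0 ± 8.66 in PANC-1 (SD, n = 3 each, exact permutation p = 1). Of all 219, 100 were read in both lines, 52 only in PANC-1-GR and 67 only in PANC-1. Most of these one-sided junctions had too few reads to tell absence from depth: 96 of the 219 had 2 reads in all, and 104 were read in 1 library only, 48 of them in PANC-1-GR and 56 in PANC-1.

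Within a library, an intronic junction that was read had fewer reads than an exonic one that was read. The mean was 2.42 ± 0.23 reads for intronic and 3.07 ± 0.19 for exonic junctions (SD, n = 6 libraries). The difference of -0.65 ± 0.19 had the same sign in 6 of 6 libraries (two-sided exact sign-flip permutation test, p = 0.031, the smallest that 6 libraries allow). The gap averaged -0.51 in PANC-1-GR and -0.78 in PANC-1 and the difference of 0.27 between the lines was not larger than the spread (exact permutation p = 0.2). The most abundant intronic junction had 72 reads in all, against 1267 for the most abundant exonic one, so no intronic junction came near the leading exonic circle. Low depth was not particular to intronic junctions. The most abundant sense overlapping junction had 111 reads, and the median was 3 reads in both categories against 4 in exonic junctions. Within-library means were not computed for sense overlapping junctions.

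**Figure D3:**
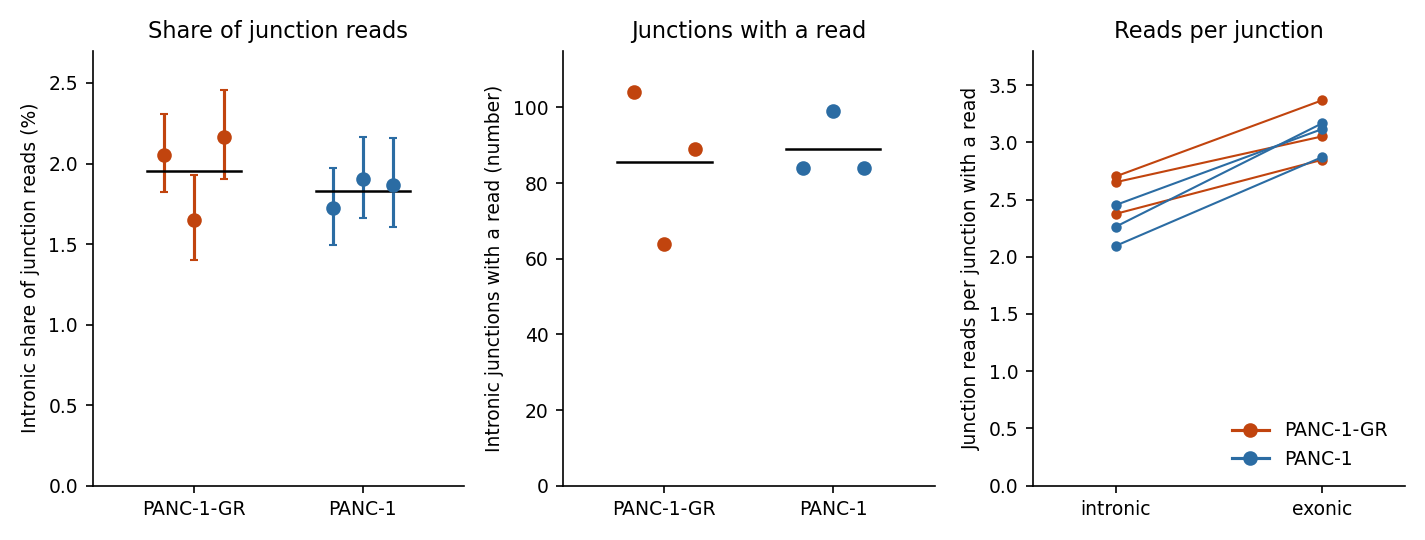
Left, intronic share of junction reads per library with exact binomial 95% intervals, between 1.65% and 2.17% in PANC-1-GR and between 1.72% and 1.90% in PANC-1. Middle, number of intronic junctions with a read. Right, mean reads per junction with a read, where each line joins the intronic and exonic value of 1 library. Black bars are means of 3 libraries, and every line in the right panel climbs to the exonic value.

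Recurrence followed read number much as in exonic junctions. Among junctions with 3 to 4 reads, intronic ones were read in a mean of 2.00 libraries and exonic ones in 2.12. With 5 to 9 reads the means were 3.68 and 3.77, and with 10 or more 5.48 and 5.49. The larger share of intronic junctions read in 1 library only, 47.5% against 28.1%, stands beside a median of 3 reads in intronic and 4 in exonic junctions. Sense overlapping junctions were like the intronic ones in both, with 50% read in 1 library only and a median of 3 reads. The 20 most abundant intronic junctions held 520 of the 1275 reads (40.8%).

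ZNF286B, a zinc finger gene, had the most abundant intronic junction, of 1436 bp at chr17:18574180-18575615 (minus strand). It had 25, 10 and 9 reads in PANC-1-GR and 17, 7 and 4 in PANC-1. Per 10000 junction reads these are 12.5 ± 5.19 in PANC-1-GR and 8.13 ± 5.33 in PANC-1 (SD, n = 3 each), and replicate 1 was the highest in both lines. ZNF286B is a duplicate of a near-identical gene, and its reads could belong to either copy. ZNF394, also a zinc finger gene, had 8, 3 and 5 reads in PANC-1-GR and 9, 5 and 9 in PANC-1 at its 1592 bp junction hsa_circ_0001726. The lines overlap in both.

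The comparison of the lines was run over the 969 junctions of all categories with at least 3 reads in at least 3 libraries. To be called, a junction needed a 2-fold or larger difference and an unadjusted p not above 0.05 in the edgeR quasi-likelihood test. Of the 969, 41 (4.23%) were called, 27 higher and 14 lower in PANC-1-GR, and none had an adjusted p under 0.05 (49 had an unadjusted p not above 0.05, and DESeq2 called 14 by the same rule). The 15 intronic junctions that passed the filter gave 2 calls, both higher in PANC-1-GR, and DESeq2 called 0 of them, so that neither call was kept under DESeq2. Such a small count cannot be set apart from the 4.23% of all junctions. The median log2 fold change was 0.17 over the 15 and -0.04 over the 969.

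HLA-G had the call with more reads. HLA-G encodes a non-classical MHC class I protein that restrains immune cells. The 9256 bp junction at chr6:29901995-29911250 (plus strand) had 8, 6 and 8 reads in PANC-1-GR and 4, 4 and 0 in PANC-1. All 3 PANC-1-GR libraries lie above all of PANC-1, at 6.57 ± 0.75 reads per 10000 in PANC-1-GR and 2.25 ± 1.95 in PANC-1 (SD, n = 3 each). The log2 fold change was 1.39 ± 0.62 (SE), past the unadjusted threshold (edgeR quasi-likelihood, adjusted p = 0.930). Without PANC-1 replicate 3, the library with 0 reads, it was 0.89, under 2-fold, and the call was lost; it was also lost at 1.29 without PANC-1-GR replicate 3. A 54353 bp intronic junction of HLA-G had 2, 3 and 1 reads in PANC-1-GR and 0, 1 and 1 in PANC-1. Both spans exceed the 4159 bp of the HLA-G gene in GENCODE release 29, and reads of MHC class I genes can fit several near-identical family members, so the host of these junctions is uncertain.

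DYRK1A had the other call. It encodes a dual specificity kinase. The 10102 bp junction hsa_circ_0006062, at chr21:38792601-38802702 (plus strand), had 5, 3 and 4 reads in PANC-1-GR and 0, 1 and 1 in PANC-1, with no overlap. It passed the filter only through the PANC-1-GR libraries, where it is high, so its selection and its call rest on the same reads. The log2 fold change was 2.34 ± 1.04 (SE), past the unadjusted threshold (edgeR quasi-likelihood, adjusted p = 0.930). Without PANC-1-GR replicate 1 it was 2.29, without PANC-1-GR replicate 3 it was 2.31 and without PANC-1 replicate 1 it was 1.79, and the call was lost in each. The span of the called junction equals a distance between an exon start and an exon end of DYRK1A. It is also longer than the longest intron of the listed transcript, which has 5300 bp. Both compare lengths only, and whether the junction comes from an intron or from exons was not tested. The first base of the called junction, 38792601, is shared by 3 exonic DYRK1A junctions. One of 1568 bp had 4, 5 and 5 reads in PANC-1-GR and 7, 6 and 7 in PANC-1, with a log2 fold change of -0.54 ± 0.55. Another of 52582 bp had 7, 6 and 9 reads in PANC-1-GR and 5, 6 and 4 in PANC-1, with 0.51 ± 0.53. Neither was called, and whether the intronic junction differed from them in its change was not tested.

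The other 13 tested junctions were not called, 6 with positive and 7 with negative log2 fold changes. Diacylglycerol kinase delta, DGKD, had 7, 1 and 2 reads in PANC-1-GR and 7, 3 and 5 in PANC-1 at its 10193 bp junction, with a log2 fold change of -0.63 ± 0.65, and an exonic junction with the same first base had 10, 11 and 6 reads in PANC-1-GR and 14, 11 and 14 in PANC-1. The log2 fold changes were -0.57 in ZNF394, -0.52 in SMA4, -0.43 in ZNF292, -0.40 in MESDC2 (a chaperone of LDL receptor family proteins) and -0.18 in CTBP2, a transcriptional corepressor. Positive ones were 0.59 in ZNF286B, 0.51 in AGO2, the slicing Argonaute protein, and 0.35 and 0.31 in the 2 junctions of the potassium channel gene KCNQ5. Standard errors ran from 0.39 to 0.90 over these 13. Values of this size cannot be separated from 0 with 14 to 72 reads per junction.

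**Figure D4:**
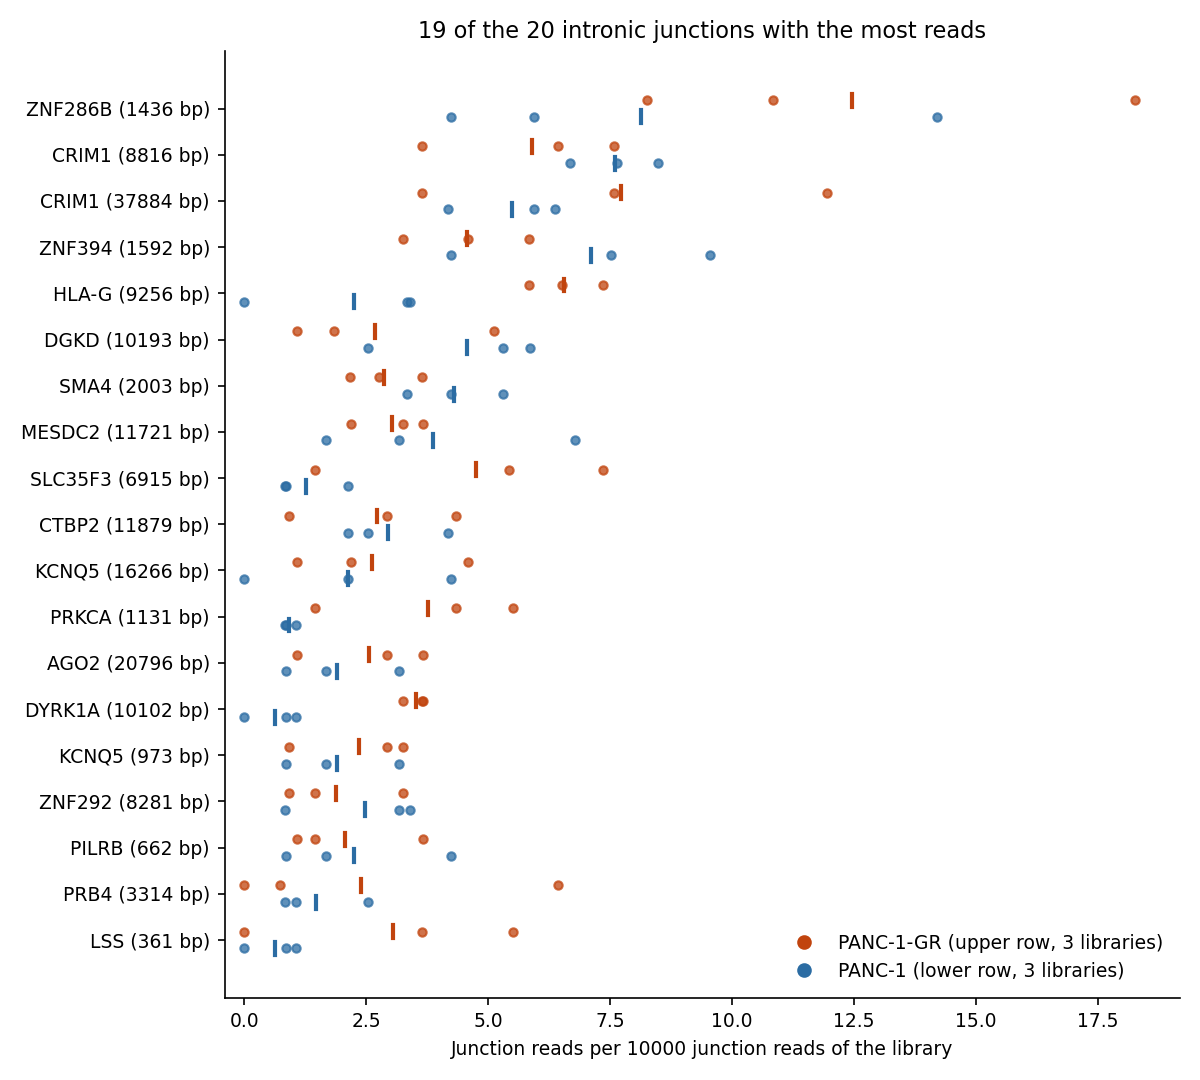
Reads per 10000 of the library's junction reads (horizontal axis) for 19 of the 20 intronic junctions with the most reads, with 3 PANC-1-GR points above 3 PANC-1 points and a bar at each mean. The lines stand apart without overlap in HLA-G, PRKCA and DYRK1A, and overlap in the other 16.

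Of the 20 most abundant, 5 did not pass the filter. SLC35F3, a solute carrier gene, had 2, 5 and 8 reads in PANC-1-GR and 1, 1 and 2 in PANC-1 at 6915 bp, and the lines overlapped per 10000 reads. PRKCA, protein kinase C alpha, had 2, 4 and 6 reads in PANC-1-GR and 1, 1 and 1 in PANC-1 at 1131 bp. The ratio of the summed reads was 3.93 (exact 95% interval 1.06 to 21.7, counting error alone). A sense overlapping PRKCA junction with the same end, hsa_circ_0007081, had 3, 4 and 1 reads in PANC-1-GR and 6, 4 and 4 in PANC-1. The 5 exonic PRKCA junctions together had 24 reads in PANC-1-GR and 18 in PANC-1. LSS, lanosterol synthase, had 5, 0 and 6 reads in PANC-1-GR and 0, 1 and 1 in PANC-1. PILRB, an immunoglobulin-like receptor gene, had 2, 1 and 4 reads in both lines. PRB4, a salivary proline-rich protein gene of a repeated family, had 1, 0 and 7 reads in PANC-1-GR and 1, 3 and 1 in PANC-1, with most in 1 library. The 18788 and 55182 bp junctions of PRB4 had 2 reads each and exceed its 3353 bp gene length. The lowest coordinates of the 3 PRB4 junctions, 11167354, 11181000 and 11273609 on chromosome 12, also lie farther apart than this length. They cannot all lie in PRB4, so their host is uncertain.

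Over the 75 intronic junctions with at least 5 reads, the lines did not overlap in 10 (13.3%), 8 higher and 2 lower in PANC-1-GR. Over all 3396 junctions with at least 5 reads this was so in 9.51%, and over the 969 tested in 10.8%. Beside HLA-G, PRKCA and DYRK1A, the higher ones were RP11-21J18.1 (8 reads in PANC-1-GR and 2 in PANC-1), LINC01004 (7 in PANC-1-GR and 1 in PANC-1), TMCC1 (5 in PANC-1-GR and 2 in PANC-1), CTC-260E6.6 (4 in PANC-1-GR and 2 in PANC-1) and the 4418 bp junction of ZFAND3 (4 in PANC-1-GR and 1 in PANC-1). The other intronic junctions of ZFAND3 had more reads in PANC-1, with 0 in PANC-1-GR and 4 in PANC-1 at 6952 bp and 1 in PANC-1-GR and 3 in PANC-1 at 2600 bp, and its exonic junctions had 1 read in PANC-1-GR and 10 in PANC-1. The lower ones were VMP1, an autophagy gene, and MBOAT2, a phospholipid acyltransferase gene. VMP1 had 0, 0 and 0 reads in PANC-1-GR and 2, 2 and 2 in PANC-1 at its 8974 bp junction. With a floor of 3 reads over the PANC-1-GR libraries it was 2.04-fold lower. This takes the PANC-1 reads as exact and is not a lower bound. The exact 95% interval of the ratio of summed reads, PANC-1-GR over PANC-1, was 0 to 0.834 (counting error alone). The exonic VMP1 junction with the same first base, hsa_circ_0004027 of 8915 bp, had 0, 0 and 3 reads in PANC-1-GR and 5, 4 and 4 in PANC-1, while all 5 exonic VMP1 junctions together had 76 reads in PANC-1-GR and 91 in PANC-1. MBOAT2 had 1, 0 and 0 reads in PANC-1-GR and 2, 1 and 1 in PANC-1. In RP11-21J18.1, LINC01004, TMCC1, CTC-260E6.6, ZFAND3 and MBOAT2 the lowest library of the higher line had as many raw reads as the highest of the other. These stood apart only after division by library depth. In TMCC1, 1 read was 1.08 per 10000 in PANC-1-GR replicate 2 and 1.06 in PANC-1 replicate 3. For any single one of the 10 junctions the exact permutation p cannot go under 0.1.

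A pair of hosts on chromosome 5 had spans of nearly equal length on opposite strands. SMA4 had junctions of 2003 and 9955 bp, and NAIP, an inhibitor of apoptosis gene named here after its values were seen, had 2002 and 9963 bp. In each host one end is shared by both junctions. The shorter SMA4 junction (chr5:69741310-69743312) had 5, 2 and 3 reads in PANC-1-GR and 4, 5 and 5 in PANC-1. Both genes lie in a duplicated region of chromosome 5, so reads could be placed on either copy.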

How the data were processed

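The authors deposited, for each circRNA and library, counts of back-splice junction reads, with hg19 coordinates, host gene, category and circBase ID. Log2 CPM columns made by the authors with edgeR stand beside them and were not used. Processing notes of the submitters list CASAVA 1.8, BWA and hg19. The junction caller, read length and sequenced depth were not stated. The table lists junctions with at least 2 reads in some library.

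Counts were compared with edgeR 4.0.16 (R 4.3.3), two-sided quasi-likelihood test (library size: all listed junction reads, between 9222 and 13689; TMM factors of 0.978 to 1.06; prior count 0.125), fitted over the 969 junctions that had 3 or more reads in 3 or more libraries, with Benjamini-Hochberg adjustment over the 969. Shares and numbers were compared over libraries with exact permutation tests (Python 3.11.15). Levels are reads per 10000 junction reads. The standard error is the log2 fold change divided by the square root of F. Intervals and the floor of 3 reads reflect counting error alone, because no molecular identifiers mark independent molecules. Alternatives were RLE factors, DESeq2 1.42.0, the edgeR exact test, no filter, a stricter filter, a fold of 1.5, a replicate block and each library left out. The test was tried on simulated data.

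GENCODE release 29 (GRCh38) gave gene types, exon and intron lengths and transcript sequence, and no coordinate was compared between builds. Strand-specific counting is not stated, so overlapping genes on opposite strands may share reads. All pairs of libraries of a line differed beyond counting noise, so none was counted as a duplicate. Members, lists and tests were chosen with earlier results of these data known. Named are the 20 junctions with the most reads, those tested or called, the 3 shortest and 3 longest, those of hosts with at least 3 intronic junctions or on a list, and those with at least 5 reads whose lines do not overlap. The results of 1 host gene that this rule names are not reported here.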

Additional observations from a re-analysis of the deposited data

How the results depend on the processing

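The 2 intronic calls in PANC-1-GR were the same with RLE factors, the edgeR exact test and a fold change of 1.5. DESeq2 called 0 intronic junctions (log2 fold changes of 2.52 in DYRK1A and 1.45 in HLA-G) and 14 in all. Requiring at least 10 reads in 3 libraries left 1 intronic junction to test, with 0 called, and 6 called in all. With no filter 7 of 219 intronic junctions were called, and 124 of 7746 in all. The 7 were SLC35F3, PRKCA, LSS, MELK, DYRK1A and HLA-G higher and VMP1 lower in PANC-1-GR. MELK had 0, 2 and 3 reads in PANC-1-GR and 0, 0 and 0 in PANC-1, and is named for this alone, after its value was seen. Leaving out each library gave between 0 and 2 intronic calls and between 38 and 52 in all. The call of HLA-G was lost when the third library of either line was left out, and without PANC-1 replicate 1 ZNF286B was called at a log2 fold change of 1.29.

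With the replicate number as a replicate block, 1 intronic junction was called (HLA-G) and 28 in all. The labels number the libraries alike in both lines, and the paper's heatmap legend calls the lines paired. Same-numbered libraries correlated at 0.027, 0.013 and 0.014 only. Replicates 1 and 3 correlated best with their own number and replicate 2 did not. With so few reads per junction, this cannot settle whether the numbers pair the libraries. The block changed no other call of a share or number.

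The difference in the number of intronic junctions with a read, PANC-1-GR minus PANC-1, was -3.33, and 0.67 when at least 2 reads were required. Leaving out each library gave -12.5 to 7.50, with positive values without PANC-1-GR replicate 2 (7.50) and without PANC-1 replicate 2 (1.67). The difference in share stayed positive, at 0.08 to 0.19 points under the other denominators and sets, and 0.02 to 0.28 when a library was left out. The intronic minus exonic difference in reads per junction was -0.54 without the leading junctions, -0.66 over junctions read in at least 2 libraries, and -0.70 to -0.60 without 1 library, where 5 libraries cannot give a p under 0.0625. Log2 fold changes that changed sign without 1 library ran from -0.55 to 0.19 in CTBP2, -0.78 to 0.32 in MESDC2, -0.058 to 0.82 in the 37884 bp junction of CRIM1 and -0.30 to 1.39 in the 16266 bp junction of KCNQ5, none of them called. The cause was not tested.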
